A study of Rattus norvegicus with 6 samples.

Results

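The 10 genes of the ATF4 and CHOP stress response described here were followed in 6 RNA sequencing libraries. The libraries come from primary smooth muscle cells of rat vessels, cells that contract and set vessel width. The genes were chosen by gene symbol, namely Atf4, Ddit3, Atf3, Atf5, Cebpb, Trib3, Chac1, Ddit4, Sesn2 and Ppp1r15a, and each symbol stood on 1 row of the 30945 genes in each file. Of these 10, 8 had enough counts to be tested, among 13016 genes tested in all. One group of 3 libraries carries the genotype label Negative_control and the other group of 3 carries siRNA_ANK, a small interfering RNA that triggers breakdown of a matching mRNA. The series title names the cells as deficient in ANK. The labels give no rat strain, age, sex, vessel, siRNA dose or time, and do not say whether the control cells received an siRNA. Nor do they say whether the replicates are separate animals or cultures, so p-values measure the spread between these samples, which may be technical.

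In the integrated stress response, kinases that sense unfolded proteins, missing amino acids, missing haem or viral RNA phosphorylate the translation factor eIF2. General translation then slows, while the mRNA of ATF4 is translated more, so that ATF4 activity can change without a change in its mRNA. ATF4 turns on amino acid genes and the gene Ddit3, whose protein CHOP pairs with C/EBP factors and is linked to cell death under lasting stress of the endoplasmic reticulum. Ddit3 also responds to ATF6 and XBP1, the other branches of the response to unfolded proteins. Feedback comes from Ppp1r15a, which encodes the GADD34 subunit that directs a phosphatase to eIF2, and from Trib3, a pseudokinase that restrains ATF4 and CHOP.

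The promoters below show the start-site sequence of the gene that fell most (Ddit3), of the other genes that fell (Trib3 and Chac1) and of the gene that rose most (Cebpb). They come from RefSeq on build GRCr8, run 5′ to 3′ on the gene's strand and cover 250 bases before to 50 bases after the start. They were matched by symbol, as were those of 9 of the 10 genes. Capitals mark matches on either strand to TGATGNAA (the composite element bound by ATF4 with C/EBP factors), to CCAAT (the CCAAT box) or to TGANTCA (the AP-1 site).
Ddit3: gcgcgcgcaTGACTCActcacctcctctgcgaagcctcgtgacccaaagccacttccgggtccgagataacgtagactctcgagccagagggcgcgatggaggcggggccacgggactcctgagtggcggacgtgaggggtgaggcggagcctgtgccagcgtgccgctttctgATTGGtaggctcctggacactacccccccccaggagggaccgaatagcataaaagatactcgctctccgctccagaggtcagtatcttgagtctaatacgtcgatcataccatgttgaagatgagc
Trib3: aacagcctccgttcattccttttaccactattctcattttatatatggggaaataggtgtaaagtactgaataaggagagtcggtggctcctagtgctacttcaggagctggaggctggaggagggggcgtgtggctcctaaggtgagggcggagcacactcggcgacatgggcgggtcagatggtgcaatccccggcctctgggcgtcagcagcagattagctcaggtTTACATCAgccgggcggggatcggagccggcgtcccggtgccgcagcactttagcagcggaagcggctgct
Chac1: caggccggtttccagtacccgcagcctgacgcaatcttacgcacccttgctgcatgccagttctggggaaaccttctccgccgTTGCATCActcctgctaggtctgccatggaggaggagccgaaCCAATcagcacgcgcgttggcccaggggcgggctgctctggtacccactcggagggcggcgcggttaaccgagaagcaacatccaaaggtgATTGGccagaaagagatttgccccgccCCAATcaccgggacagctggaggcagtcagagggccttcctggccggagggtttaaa
Cebpb: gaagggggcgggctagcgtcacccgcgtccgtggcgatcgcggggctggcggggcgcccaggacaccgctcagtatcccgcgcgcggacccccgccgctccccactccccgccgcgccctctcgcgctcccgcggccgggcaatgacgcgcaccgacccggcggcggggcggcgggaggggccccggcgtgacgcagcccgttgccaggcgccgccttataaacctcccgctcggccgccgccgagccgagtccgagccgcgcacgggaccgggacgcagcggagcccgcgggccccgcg

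The Ddit3 window (chr7:65001445-65001744, plus strand) held an AP-1 site from -241 to -235 and a reversed CCAAT box from -76 to -72, counted from the start site as 1. The Trib3 window (chr3:161275484-161275783, minus strand) held the composite element as TTACATCA from -21 to -14. In the Chac1 window (chr3:126795881-126796180, plus strand) the element read TTGCATCA from -167 to -160, and 3 CCAAT boxes followed it. The Cebpb window (chr3:176816755-176817054, plus strand) held none of these letters and was 81.0% G and C. Of 33469 promoters of this length, 3.98% held the composite element, 37.5% a CCAAT box and 7.33% an AP-1 site. The endoplasmic reticulum stress response element was searched as exact letters, CCAAT and CCACG with 9 bases between them. These letters were in 0.0657% of all promoters and in none of the 9 matched here. In the Ddit3 window CGTGC stands 9 bases before the reversed CCAAT box, where the reversed exact letters have CGTGG. Variants of the element were not searched for. These matches describe letters in a short window and say nothing of binding. A CCAAT box is also the first part of the longer element.

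Among the 8 tested genes, Ddit3 changed most. Cebpb, Ddit4 and Sesn2 were higher in siRNA_ANK, Ddit3, Trib3 and Chac1 were lower, and Atf4 and Atf3 did not pass the test. Genes were called at an adjusted p under 0.05 in edgeR's quasi-likelihood test with Benjamini-Hochberg adjustment over all genes. By that rule 40.1% of all tested genes were called, 19.9% higher and 20.2% lower, and the 3 higher and 3 lower of 8 stand against that background. With shares of this size over all genes, a call alone sets no gene apart, so the sizes are given below. The median log2 change (the fitted log2 fold change, siRNA_ANK minus negative control) of the 8 was -0.10, against 0.01 over all tested genes. Groups did not overlap for 51.1% of all tested genes and for 6 of these 8.

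**Figure D1:**
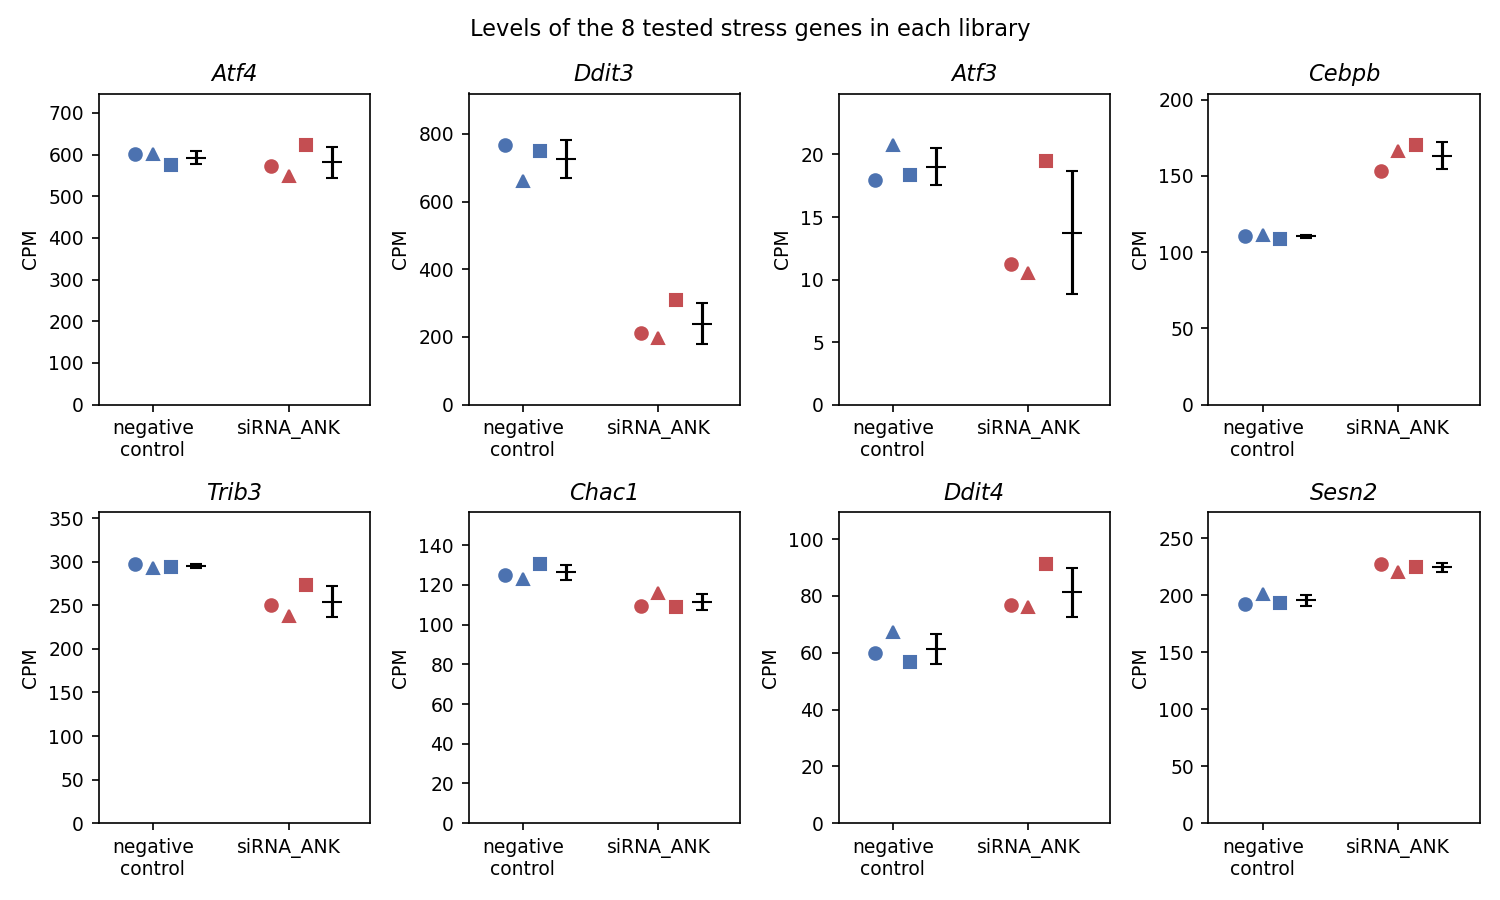
Level of each of the 8 tested genes in CPM (the counts of a gene relative to the TMM-scaled library total), with 1 point per library (circle, triangle and square for replicates 1, 2 and 3) and the mean ± SD of each group in black. Ddit3 lay between 661 and 766 CPM in the negative controls and between 198 and 309 CPM in siRNA_ANK, while Atf4 overlapped between the groups.

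Atf4 encodes the central transcription factor of the pathway. Its mRNA measured 601, 602 and 574 CPM in negative control replicates 1, 2 and 3, and 573, 548 and 622 CPM in siRNA_ANK replicates 1, 2 and 3. The groups overlapped, and the highest and the lowest values were both in siRNA_ANK. The log2 change was -0.03 ± 0.06 (SE, n = 3 per group, edgeR adjusted p = 0.745), with a 95% interval from -0.15 to 0.10. Without siRNA_ANK replicate 2 its sign turned (0.011, adjusted p = 0.912). Atf4 (ENSRNOG00000017801) spans 111804183 to 111806446 on the plus strand of chromosome 7 in build mRatBN7.2.

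Ddit3 encodes CHOP, which dimerises with C/EBP proteins. It measured 766, 661 and 748 CPM in the controls, against 212, 198 and 309 CPM in siRNA_ANK. Every siRNA_ANK library lay below every control library, and siRNA_ANK replicate 3 was the nearest to the controls. The mean fell 3.02-fold, from 725 ± 55.9 to 240 ± 60.6 CPM (SD, n = 3), with a log2 change of -1.60 ± 0.19 (SE, edgeR adjusted p = 0.00133). Ddit3 was called and at least 2-fold lower, as were 2.58% of all tested genes. A log2 change as low or lower, whether called or not, was found for 0.907% of tested genes. Ddit3 (ENSRNOG00000006789, chromosome 7, 63116380 to 63121201, plus strand) shares its last 60 bases with the methionyl-tRNA synthetase gene Mars1 on the other strand. The strand setting of the counting is not given in the sources used here, so reads from those bases cannot be told apart. Mars1 went the other way, from 148 ± 10.1 to 210 ± 6.27 CPM (adjusted p = 1.19e-05).

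Relative to Atf4 the loss of Ddit3 mRNA was as plain, and this ratio does not depend on library scaling. Per base of gene length, the ratio of Ddit3 to Atf4 was 2.18, 1.88 and 2.23 in the controls and 0.633, 0.618 and 0.851 in siRNA_ANK. Ddit3 thus stood above Atf4 in each control library and below it in each siRNA_ANK library. An exact permutation test of 3 against 3 libraries, two-sided, cannot go below p = 0.1, so none is given for the ratio. Against Cebpb, a partner of CHOP, the ratio of Ddit3 per length went from 18.0 ± 1.49 to 4.02 ± 0.886 (SD, n = 3).

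Atf3 encodes a repressor-like member of the ATF family that is induced by many stresses. It measured 18.0, 20.7 and 18.4 CPM in the controls, against 11.3, 10.5 and 19.4 CPM in siRNA_ANK. Replicates 1 and 2 of siRNA_ANK lay below all controls, whereas replicate 3 lay within the control range. The log2 change of -0.47 ± 0.22 (SE) did not pass in edgeR (adjusted p = 0.124). Without siRNA_ANK replicate 3 it was -0.80 (adjusted p = 2.30e-06). It also passed in DESeq2 (adjusted p = 0.0263), in limma-voom (0.0287) and with the replicate number as a block (0.0429).

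Cebpb encodes C/EBP beta, a bZIP factor that binds both CHOP and ATF4. It measured 111, 111 and 109 CPM in the controls, against 153, 166 and 170 CPM in siRNA_ANK. The controls lay close together, and every siRNA_ANK library was above them. The mean rose 1.48-fold, from 110 ± 1.20 to 163 ± 8.76 CPM, with a log2 change of 0.57 ± 0.06 (SE, n = 3, edgeR adjusted p = 2.55e-06). The counts do not separate the long and short forms of the protein, which come from 1 mRNA.

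Atf5, another ATF4 relative that is also controlled by translation, could not be read. Its row held 0, 0 and 3 counts in the controls and 3, 1 and 2 counts in siRNA_ANK. The span of the gene, 95295610 to 95299707 on the minus strand of chromosome 1, lies wholly inside the spans of Nup62 and Il4i1 on the plus strand. Nup62, which encodes a nuclear pore protein, measured 52.8 ± 0.594 and 42.8 ± 0.917 CPM.

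Ppp1r15a was listed at 0 counts in all 6 libraries, against a limit of 3 counts that corresponds to 0.172 to 0.192 CPM. Its whole span of 3114 bases (chromosome 1, 96000058 to 96003171, minus strand) lies inside that of Nucb1 on the same strand, and Nucb1 measured 609 ± 28.2 and 441 ± 7.53 CPM. A row at 0 inside another gene does not show that the gene is silent, and the part that shared reads play in these rows was not tested. No change can therefore be given for the GADD34 mRNA. Its relative Ppp1r15b, the constitutive partner of the same phosphatase, measured 143 ± 2.51 and 132 ± 14.7 CPM and was not called (adjusted p = 0.220).

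Trib3 encodes a tribbles pseudokinase induced by ATF4 and CHOP. It measured 298, 293 and 294 CPM in the controls, against 250, 238 and 273 CPM in siRNA_ANK. All siRNA_ANK values were lower than the narrow control range, with replicate 3 again nearest. The mean fell 1.16-fold (log2 change -0.22 ± 0.06, edgeR adjusted p = 0.00868). Of its relatives, Trib2 rose from 12.0 ± 2.38 to 22.2 ± 1.09 CPM (adjusted p = 5.26e-05) and Trib1 was not called (21.1 ± 2.09 and 18.5 ± 1.43 CPM).

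Chac1 encodes an enzyme that degrades glutathione. It measured 125, 123 and 131 CPM in the controls, against 109, 116 and 109 CPM in siRNA_ANK, without overlap. The log2 change was -0.18 ± 0.06 (SE, edgeR adjusted p = 0.0175), a 1.13-fold difference. This call was lost without negative control replicate 1 (adjusted p = 0.0555), negative control replicate 3 (0.0841) or siRNA_ANK replicate 1 (0.0757). Its relative Chac2 was near 5 CPM and was not called (4.96 ± 0.341 and 5.60 ± 0.832 CPM).

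Ddit4 and Sesn2 both encode inhibitors of the growth kinase mTORC1, and both rose. Ddit4, also known as REDD1, acts through the TSC complex and measured 60.0, 67.3 and 56.9 CPM in the controls, against 76.7, 76.0 and 91.3 CPM in siRNA_ANK. Its groups were separate, and replicate 3 was the highest of the siRNA_ANK libraries. The log2 change was 0.40 ± 0.08 (SE, edgeR adjusted p = 0.00139). Sesn2, the leucine sensor sestrin 2, measured 193, 201 and 193 CPM in the controls, against 228, 221 and 225 CPM in siRNA_ANK. Its difference was small, but no siRNA_ANK value reached down to a control value (log2 change 0.20 ± 0.05, edgeR adjusted p = 0.00682).

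Relatives of these inhibitors rose as well. Ddit4l, a paralog of Ddit4, went from 0.759 ± 0.173 to 3.04 ± 0.716 CPM (log2 change 1.99 ± 0.30, adjusted p = 0.000125). Sesn1 rose from 5.20 ± 0.621 to 8.56 ± 0.485 CPM (adjusted p = 0.00133), and Sesn3 from 65.1 ± 4.34 to 77.4 ± 9.86 CPM with groups that overlapped (adjusted p = 0.0349). Of the 7 close relatives of the effector genes tested, 4 rose (57.1%) and none fell, against 19.9% and 20.2% of all tested genes. The 4 include Trib2, a relative of Trib3. Some fits that left out libraries did call relatives lower.

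**Figure D2:**
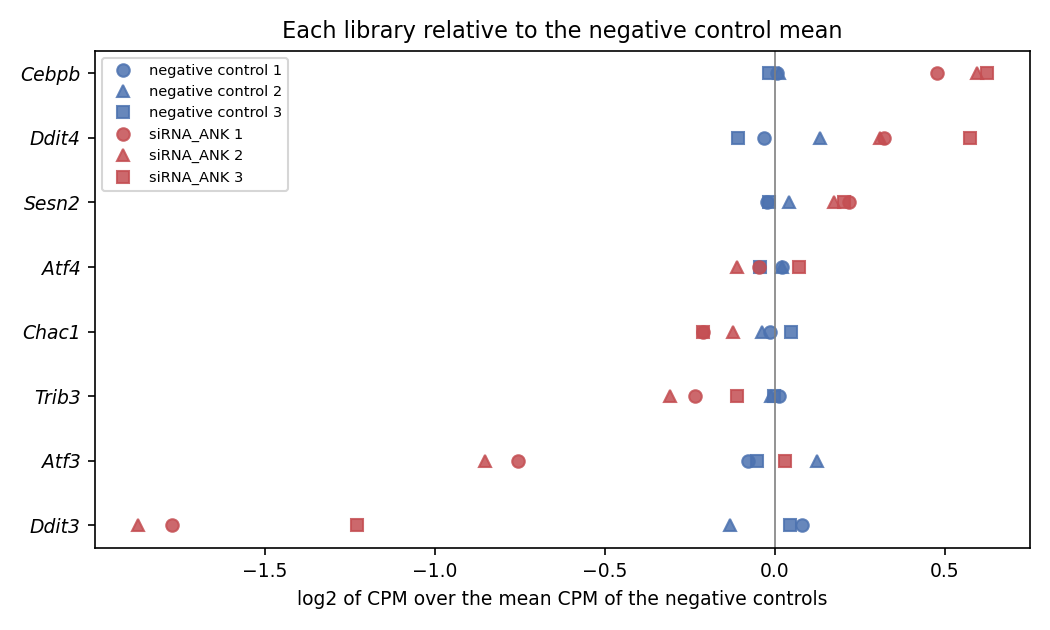
Each library's level on a log2 scale relative to the mean CPM of the negative controls, with 1 row per gene, blue for negative control and red for siRNA_ANK libraries. In siRNA_ANK replicate 3 (red square) Ddit3 was at -1.23 and Atf3 at 0.03, against -1.77 and -1.87 for Ddit3 and -0.76 and -0.85 for Atf3 in the other two.

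The place of siRNA_ANK replicate 3 within its group differed from gene to gene. The targeted gene Ankh, which encodes the membrane protein ANK needed for pyrophosphate release, measured 338 to 367 CPM in the controls, against 84.9, 76.7 and 120 CPM in siRNA_ANK replicates 1, 2 and 3. Replicate 3 thus had the highest Ankh level of its group, and it was nearest to the control mean for Ddit3, Atf3 and Trib3. For Ddit4 and Cebpb it was the farthest from that mean, at 0.57 and 0.62 on the log2 scale, against 0.32 and 0.31 for Ddit4 and 0.48 and 0.59 for Cebpb in replicates 1 and 2. For Chac1 it was level with replicate 1 (-0.21 in both), and replicate 2 was nearest to the controls (-0.12). For Sesn2 it lay between the other two. On the first principal component, with 70.6% of the variance, siRNA_ANK replicate 3 (25.4) and negative control replicate 2 (-26.7) lay nearest to the other group. Without both, a choice made after seeing the data, the log2 change of Atf3 was -0.74 (adjusted p = 5.82e-06). Library totals were 15641259 to 17441548 counts.

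Levels of the 10 genes differed widely per length in the controls. Ddit3 stood highest at 840 ± 64.7 CPM per kilobase (SD, n = 3), a level that 0.277% of tested genes exceeded, and Atf4 followed at 401 ± 10.5. Trib3 was at 159 ± 1.29, Chac1 at 80.5 ± 2.48, Sesn2 at 55.6 ± 1.36, Cebpb at 46.6 ± 0.508, Ddit4 at 35.4 ± 3.06 and Atf3 at 10.05 ± 0.782 CPM per kilobase. No neighbours in this control order overlapped in any library. In siRNA_ANK the order was Atf4 (393 ± 25.4), Ddit3 (278 ± 70.3), Trib3 (137 ± 9.52), Chac1 (71.0 ± 2.57), Cebpb (68.9 ± 3.70), Sesn2 (63.8 ± 1.01), Ddit4 (46.9 ± 4.97) and Atf3 (7.26 ± 2.61) CPM per kilobase. There Chac1 and Cebpb overlapped between libraries, and Cebpb and Sesn2 nearly met, with a lowest Cebpb value of 64.76 and a highest Sesn2 value of 64.73. The other neighbours did not overlap.

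Genes whose log2 CPM followed that of Ddit3 most closely across the 6 libraries were B4galt3, Reep5, Slc16a1, Cflar and Dnajc3, with Pearson r between 0.9992 and 0.9999. These values rest on 6 libraries in 2 separate groups and were the highest among 8602 genes, so they describe likeness and carry no p. Dnajc3, an inhibitor of eIF2 kinases in the endoplasmic reticulum, went from 485 ± 55.8 to 143 ± 40.4 CPM. For Atf4 the closest were Mix23, Aven, Zc3h15, Ntpcr and Nop58 (r from 0.975 to 0.986), all with log2 changes between -0.075 and -0.0025.

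Upstream of ATF4, of 19 kinases, subunits and regulators of the eIF2 machinery tested, 5 fell (26.3%, against 20.2% of all tested genes) and none rose. Eif2ak3, which encodes the kinase PERK, fell from 117 ± 3.97 to 70.2 ± 12.8 CPM (log2 change -0.74 ± 0.11, edgeR adjusted p = 0.000481), and Dnajc3 fell with a log2 change of -1.77 ± 0.23 (adjusted p = 0.00284). Eif2b2 and Eif2b3, subunits of the exchange factor of eIF2, fell from 113 ± 2.46 to 78.7 ± 7.72 and from 95.9 ± 4.50 to 78.6 ± 9.60 CPM. The number that fell was 3 without siRNA_ANK replicate 1 and 8 without the pair of libraries nearest to the other group.

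Among ATF, CREB and C/EBP relatives 5 of 12 rose (41.7%) and 6 fell (50%), against 19.9% and 20.2% of all tested genes. Atf6, the sensor of another branch, fell from 419 ± 14.1 to 220 ± 24.7 CPM, and Atf6b from 154 ± 4.14 to 126 ± 5.45 CPM. Jdp2, a repressor that pairs with AP-1 factors, rose from 55.2 ± 1.64 to 86.1 ± 1.65 CPM. Cebpd, the C/EBP paralog of Cebpb, rose from 8.30 ± 0.702 to 18.9 ± 1.48 CPM (log2 change 1.19 ± 0.11, adjusted p = 1.45e-06). The number that rose was 3 without negative control replicate 3 or siRNA_ANK replicate 1.

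**Figure D3:**
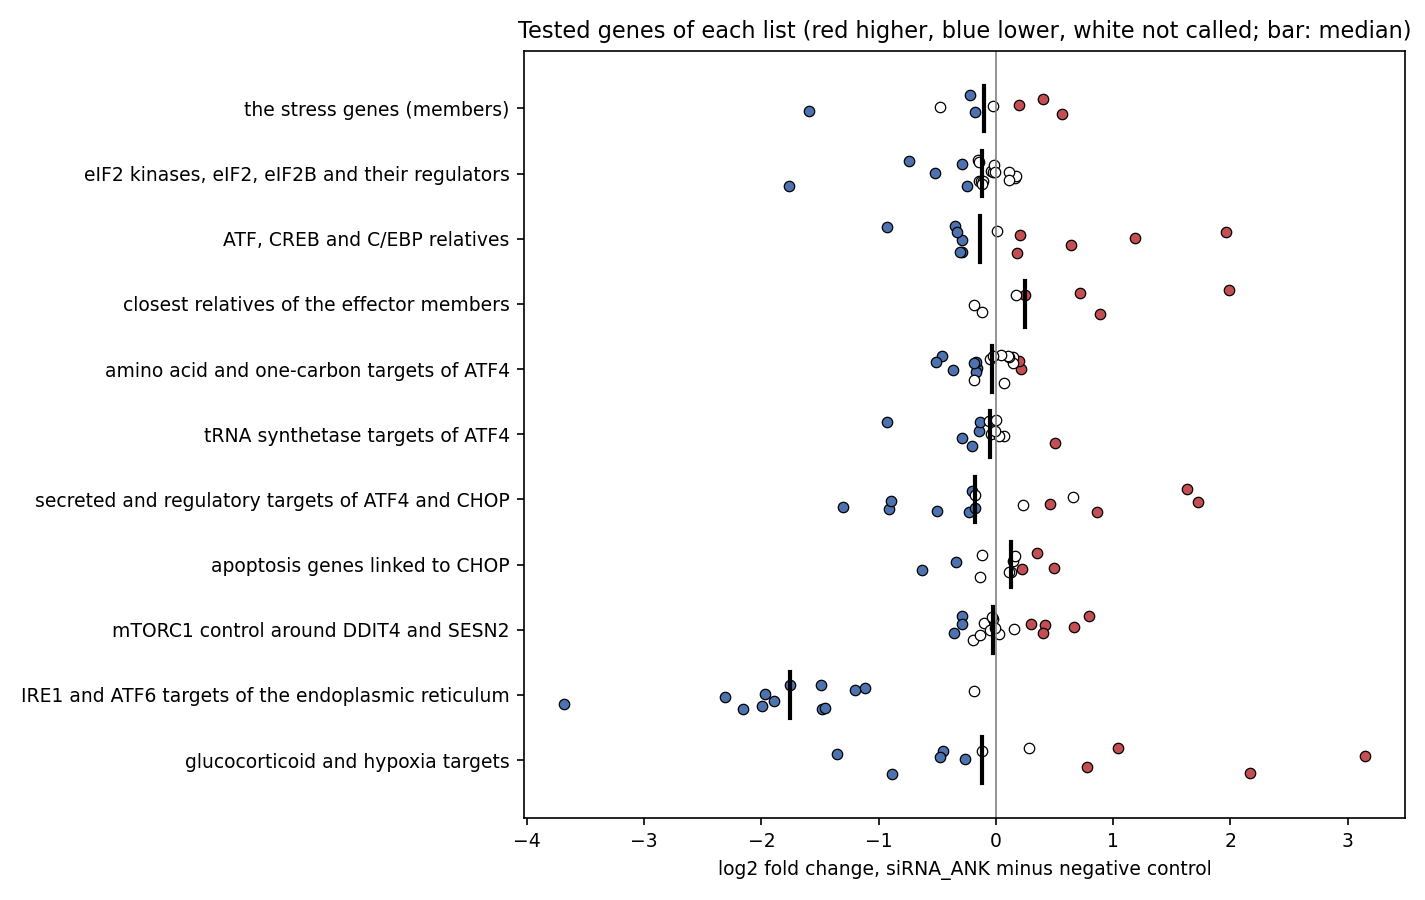
Log2 fold change of each tested gene, siRNA_ANK minus negative control, with 1 row per gene list, red and blue points for genes called higher and lower, white points for genes not called and a bar at the median. The IRE1 and ATF6 target row lies to the left of 0 with a median of -1.76, while the medians of the other lists lie between -0.18 and 0.25.

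Known ATF4 targets showed mostly small differences. Of 18 amino acid and one-carbon genes tested, 2 rose (11.1%) and 7 fell (38.9%), against 19.9% and 20.2% of all tested genes. The median log2 change of the list was -0.04, with a range from -0.51 to 0.21. The transporter genes Slc6a9, Slc7a1 and Slc3a2 fell from 271 ± 9.46 to 197 ± 16.3, from 391 ± 4.27 to 303 ± 8.34 and from 1291 ± 41.0 to 907 ± 152 CPM. The mitochondrial folate enzyme gene Mthfd2 rose from 182 ± 4.80 to 211 ± 2.90 CPM. The number that fell was 3 or 4 without any one of negative control replicates 1, 2 and 3 or siRNA_ANK replicates 1 and 2.

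Of 12 tRNA synthetase genes, 1 rose (8.33%) and 5 fell (41.7%), against 19.9% and 20.2% of all tested genes. The median log2 change of the 12 was -0.05. The one that rose was Mars1, and Wars1, of tryptophan, fell from 571 ± 29.7 to 300 ± 42.3 CPM (log2 change -0.93 ± 0.09, adjusted p = 1.23e-05). Nars1 and Gars, of asparagine and glycine, fell with log2 changes of -0.29 ± 0.07 and -0.20 ± 0.06. The number that fell was 2 or 3 without any one of negative control replicates 1, 2 and 3 or siRNA_ANK replicates 1 and 2. The composite element shown in the Trib3 and Chac1 promoters was in 6 of the 9 synthetase promoters matched and in 3 of 16 promoters of the amino acid list.

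Other targets of ATF4 and CHOP moved in both directions, with 4 of 14 higher (28.6%) and 7 lower (50%). Over all tested genes 19.9% were higher and 20.2% lower. The median log2 change of the list was -0.18, with a range from -1.30 to 1.72. Vldlr, a lipoprotein receptor gene, rose from 731 ± 38.5 to 1009 ± 19.6 CPM, Cdkn1a, the inhibitor of cyclin-dependent kinases, from 45.2 ± 4.44 to 82.1 ± 6.77 CPM and Ndrg1 from 6.43 ± 1.21 to 19.9 ± 3.12 CPM. Sqstm1, an autophagy receptor gene, fell from 957 ± 31.5 to 510 ± 78.6 CPM. Among 11 apoptosis genes linked to CHOP, 3 rose (27.3%) and 2 fell (18.2%). These shares lie near the 19.9% and 20.2% of all tested genes, so the counts do not set the list apart. Pmaip1 and Tnfrsf10b, which encode the death proteins NOXA and DR5, fell from 393 ± 8.98 to 253 ± 33.6 and from 26.9 ± 0.911 to 21.3 ± 0.219 CPM. Mcl1, a survival gene, rose from 149 ± 3.85 to 174 ± 5.80 CPM, and Bcl2l11, which encodes the death protein BIM, from 6.92 ± 0.425 to 9.76 ± 1.17 CPM. The number that fell was 4 without siRNA_ANK replicate 3.

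Around Ddit4 and Sesn2, 5 of 17 genes of mTORC1 control rose (29.4%) and 3 fell (17.6%). The shares over all tested genes were 19.9% and 20.2%, so these counts do not set the list apart. Deptor, an mTOR inhibitor, rose from 32.4 ± 1.46 to 51.3 ± 2.70 CPM and Castor2, a CASTOR family gene, from 6.40 ± 0.233 to 11.1 ± 2.05 CPM. Mtor itself fell from 72.1 ± 2.16 to 58.8 ± 1.66 CPM, and Sec13, a subunit of the GATOR2 complex and of secretory coats, from 121 ± 6.30 to 94.4 ± 7.02 CPM. The number that rose was 2 without negative control replicate 1, and 3 without siRNA_ANK replicate 1 or 2. In a list of targets of glucocorticoids and hypoxia, stimuli that Ddit4 is also known to respond to, 4 of 11 rose (36.4%) and 5 fell (45.5%). Over all tested genes 19.9% were higher and 20.2% lower. The median log2 change of this list was -0.12, with a range from -1.35 to 3.15, so it did not move in one direction. Egln3 and Ca9 rose from 1.18 ± 0.403 to 10.6 ± 0.698 and from 20.5 ± 4.91 to 92.2 ± 3.19 CPM, Pfkfb3 rose from 42.9 ± 4.14 to 73.3 ± 2.07 CPM, and Bnip3 fell from 102 ± 8.48 to 55.5 ± 7.50 CPM.

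Folding genes of the endoplasmic reticulum fell, with a median below the value of Ddit3. Of 13 IRE1 and ATF6 targets tested, 12 fell (92.3%) and none rose, against 20.2% lower and 19.9% higher over all tested genes. The median log2 change of the list was -1.76, against 0.01 over all tested genes. The list ranged from -3.68 to -0.18. Edem1, Sel1l, Dnajb11 and Pdia6, of protein disposal and folding, had log2 changes of -1.48 ± 0.11, -1.49 ± 0.13, -1.46 ± 0.15 and -1.12 ± 0.13. They are named for the smallest adjusted p, and all fell less than the median of the list. The exact letters of the response element were in 5 of the 12 promoters matched in this list. The Ddit3 window lacked these exact letters, and variants of the element were not searched for. No test of the difference between Ddit3 and either list was made.

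Markers of cell types, smooth muscle included, were low or moved as follows. Of 6 leukocyte markers, Ptprc, Adgre1, Cd3e and Itgam were at 0 in all libraries, and the sum of the list was 0.461 to 0.937 CPM in the controls, against 0.359 to 0.600 CPM in siRNA_ANK. Of 6 endothelial markers, Cdh5, Kdr and Tie1 were at 0, with sums of 0.749 to 1.07 and 0.899 to 1.58 CPM. Over all tested genes 19.9% were called higher. The 7 smooth muscle markers, of the cell type cultured, were all called higher, with sums of 2594 to 3606 and 5153 to 6171 CPM. Of 6 adventitial fibroblast markers 5 were called higher, with sums of 118 to 127 and 192 to 203 CPM, and none was at 0. The part of this shift in the results above was not tested. In RNA of whole cultures, fewer cells of a type and less RNA per cell cannot be told apart.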

How the data were processed

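RNA of primary smooth muscle cells of rat vessels was sequenced from 3 negative control and 3 siRNA_ANK samples, 1 library each. The authors deposited whole-number counts per gene, not normalized, in 1 table per library. The submitters' processing notes name DESeq2, featureCounts 1.5.0-p3 and build mRatBN7.2. The aligner and the strand setting were not given in the sources used here.

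The analysis used edgeR 4.0.16 (R 4.3.3): filterByExpr (minimum count 10, minimum total 15), TMM scaling, and the robust quasi-likelihood test, two-sided, without covariate. Benjamini-Hochberg adjustment covered 13016 genes. The 385 rows without a symbol held 0.306% to 0.339% of counts and stayed in. SE is the size of the log2 change over the square root of F. The limit of 3 counts covers counting error only.

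The genes and lists were chosen with earlier results of these data known. Named from each list were up to 4 called genes with the smallest adjusted p; relatives of the 10 genes were named whatever their call, and genes overlapping them after their values were seen. Of the entries of the pathway lists, 133 genes were tested. No 2 replicates agreed within sampling noise (chi-square per degree of freedom 2.83 to 12.3). Simulated counts (12899 genes tested) had 67 genes changed 1.5-fold, 67 changed 2-fold and 66 changed 4-fold. There edgeR recovered 70.1%, 85.1% and 95.5% of them, and 8.24% of 182 calls were false. In the data 40.1% of genes were called, a far larger share. Recovery and false calls depend on that share, so these figures do not carry over to the data. Alternatives were DESeq2 1.42.0, limma-voom (limma 3.58.1), other scalings and filters, a replicate block and leaving out libraries.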

Additional observations from a re-analysis of the deposited data

How the results depend on the processing

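The directions of Ddit3, Trib3, Chac1, Cebpb, Ddit4, Sesn2 and Atf3 held in the 15 alternatives run. The calls of Ddit3, Trib3, Cebpb, Ddit4 and Sesn2 held in all 15, and that of Chac1 in 12 of them, with adjusted p from 0.00420 to 0.0841. Atf3 passed in 5 of the 15, with adjusted p from 2.30e-06 to 0.287. The log2 change of Atf4 turned in sign without siRNA_ANK replicate 2 (from -0.080 without siRNA_ANK replicate 3 to 0.011). Causes were not tested. Leaving out 1 library at a time gave 2 to 4 lower and 3 higher among the 8 genes. In the lists, the same steps gave 0 to 1 higher and 3 to 7 lower for the eIF2 machinery, 3 to 5 higher for ATF, CREB and C/EBP relatives, and 0 to 1 lower for the closest relatives of the effectors. They gave 1 to 3 higher and 3 to 7 lower for amino acid targets, 2 to 5 lower for tRNA synthetases, 2 to 4 lower for apoptosis genes and 2 to 5 higher for mTORC1 control. In the eIF2 list 1 gene was higher with upper quartile scaling, with only genes of a mean of 5 CPM or more, and without both libraries nearest to the other group; without those, 8 were lower. Without those libraries 2 of the closest relatives of the effectors were lower. DESeq2 called 1 amino acid target higher, and upper quartile scaling called 4 of them and 3 tRNA synthetases lower. With the replicate number as a block, 3 of the 8 genes were higher and 4 lower. Same-numbered libraries did not deviate together (r of -0.0306, 0.0835 and 0.0491), so the numbers were not taken as pairs.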
